A study of Mus musculus with 12 samples.

Results

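The 10 genes described here were chosen by their symbols as genes of fetal growth that are known to be silenced or strongly reduced after birth. They are the imprinted genes Igf2, H19, Dlk1, Meg3, Peg3 and Plagl1, and the oncofetal genes Igf2bp1, Igf2bp3, Lin28b and Hmga2. All 10 were found among the 23329 genes listed, and 9 of them were among the 13038 genes tested. Lin28b had at most 3 counts in any library and was not tested. Each of the other 9 was above 0.5 CPM (counts relative to the TMM-scaled library total) in all 12 libraries, so none of them entered the test through a single stage.

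The libraries were stranded polyA mRNAseq of primary stromal cells from the small intestine of C57BL6/J mice, isolated from mid-gestation E14.5 embryos or adult animals. Adult villi were scraped away and embryonic gut was cut into pieces, the epithelium was then shaken off, the rest was digested and plated, and the cells were used at passages 2 to 3. Cultures received LPS from Escherichia coli O111:B4, given in the labels as 10 µg/µl for 6 h, or PBS, and each of the 4 groups (E14.5 PBS, E14.5 LPS, adult PBS, adult LPS) held 3 libraries. The study compared how stroma of the 2 ages responds to LPS. The 3 adult cultures came from 3 mice, and each E14.5 culture pooled 6 embryos, so that single embryos cannot be told apart. The adult mice's age in weeks is not given in the sources used here. The cells were not sorted, and every group, controls included, had been expanded in serum with the ROCK inhibitor Y27632. Within a stage, LPS and PBS libraries with the same replicate number are called a culture below, since they deviated together from their group means. Same-numbered libraries of different stages did not deviate together.

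Imprinted genes are transcribed from the copy inherited from only one parent, and many of them set the size of the fetus. Igf2 and H19 share a domain in which Igf2 is read from the paternal copy and H19 from the maternal copy, and Dlk1 and Meg3 are arranged in the same way. Igf2 is the fetal growth factor, Dlk1 is a transmembrane ligand-like protein that restrains differentiation, H19 and Meg3 are long noncoding RNAs, and Peg3 and Plagl1 are zinc-finger proteins. The oncofetal genes act after transcription or on chromatin. Igf2bp1 and Igf2bp3 bind and stabilise mRNAs including that of Igf2, Lin28b blocks the maturation of the let-7 microRNAs, and Hmga2 is a chromatin architectural protein and a classical let-7 target.

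Total gene counts ranged from 18850224 to 32672370 a library, so that 3 counts, taken as the smallest detectable level, corresponded to 0.0896 to 0.144 CPM. This floor covers counting error only. The labels call the cells intestinal myofibroblasts, and all 10 mesenchymal markers were detected in every library, with summed levels of 20836 to 40034 CPM. One of them, Pdgfra, a fibroblast receptor, was lower in E14.5 than in adult stroma with PBS (log2 fold change -3.72, edgeR adjusted p = 0.00687). The other 9 were not called with PBS, at log2 fold changes from -1.72 (Thy1) to 0.85 (Col1a1). Markers of other cells differed between cultures. The 12 macrophage markers summed to 215, 427 and 2608 CPM in E14.5 PBS cultures 1, 2 and 3 and to 178, 954 and 2005 CPM with LPS, against 16.4 to 198 CPM in the adult libraries, and none of them was at 0 in any library. The 6 endothelial markers summed to 1749 CPM in adult PBS culture 2 and 1681 CPM with LPS, to 365 and 337 CPM in adult culture 3, and to 8.31 to 34.6 CPM in the other 8 libraries, where at most 1 of the 6 was at 0. The 6 mesothelial markers were all detected and ranged from 116 to 484 CPM in E14.5 and from 297 to 1086 CPM in adult libraries. The 8 markers of dividing cells ranged from 91.9 to 395 CPM in E14.5 and from 117 to 331 CPM in adult libraries. Of the 6 epithelial markers, whose sums ranged from 7.50 to 59.7 CPM with at most 2 at 0, only Krt20 passed the filter, and it was called higher in E14.5 with PBS (log2 fold change 1.87, edgeR adjusted p = 0.0298). Krt20 made up nearly all of these sums, at 59.1 of 59.7 CPM in E14.5 PBS culture 1. The others had group means of at most 0.604 CPM (Cdh1, adult LPS). Epcam had means of 0.0806 CPM in E14.5 PBS and 0.114 CPM in adult PBS cultures. The part of these markers in the differences below was not tested, and in bulk RNA fewer cells of a type and less RNA per cell cannot be told apart.

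The first question was whether these fetal growth genes still separated the 2 stages after culture. With PBS, 5 of the 9 tested members were called higher in E14.5 stroma and none lower: Dlk1, Igf2bp3, Peg3, Igf2bp1 and Plagl1. A gene was called where its p in the quasi-likelihood test of edgeR, adjusted by Benjamini-Hochberg across the 13038 genes, was under 0.05. Across all tested genes 1.51% were called higher in E14.5. With LPS the members called were the same 5, where 3.04% of tested genes were called higher in E14.5. The LPS comparison is not a second, independent one, because its libraries came from the same 3 cultures a stage. For 6 members, Igf2 and the 5 called genes, all 3 E14.5 libraries lay above all 3 adult libraries, both with PBS, where this held for 12.5% of tested genes, and with LPS, where it held for 13.4%. H19, Meg3 and Hmga2 overlapped between the stages. The median log2 fold change of the 9 members was 2.23 with PBS and 1.97 with LPS, against 0.02 over all tested genes in both. These tests treat the PBS and LPS libraries of a culture as separate samples. With the counts of a culture summed, so that each culture entered once, Dlk1 and Igf2bp3 were called (edgeR adjusted p = 0.0353 and 0.0404) and Igf2bp1, Plagl1 and Peg3 were not (0.0507, 0.0552 and 0.0749). With both libraries of one culture left out the count was 4 to 6 members, except for adult culture 3, without which 0 were called in either comparison (edgeR adjusted p = 0.0924 and 0.0942 for Dlk1 and 0.0685 and 0.0879 for Igf2bp3 with PBS and LPS). The scraping of villi was done on adult gut alone, so it cannot be told apart from stage. P-values measure the spread between these libraries alone.

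**Figure D1:**
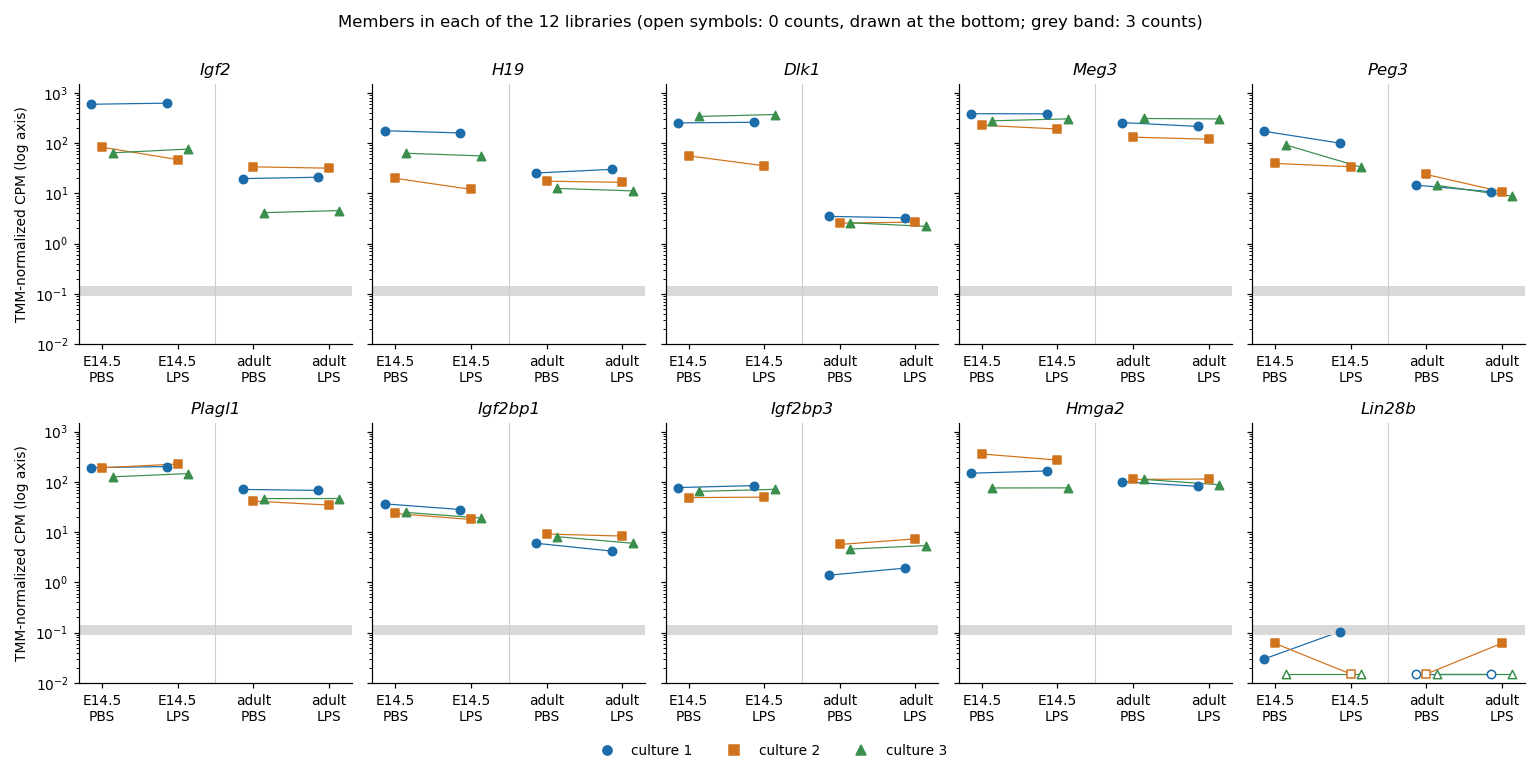
TMM-normalized CPM of each member (log axis) in the 12 libraries, with a colour and symbol for each culture a line joining the PBS and LPS libraries of a culture, a grey band at 3 counts and open symbols for 0 counts. In E14.5 culture 1 Igf2 reached 592 CPM with PBS, against 82.8 and 64.0 in the other 2 cultures, and Dlk1 stayed at or under 3.48 CPM in every adult library.

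Igf2 lies at chr7:142650768-142666816 (GRCm38.p6) on the minus strand. In E14.5 cultures 1, 2 and 3 it stood at 592, 82.8 and 64.0 CPM with PBS and at 623, 46.9 and 76.0 CPM with LPS. The adult cultures gave 19.6, 33.6 and 4.12 CPM with PBS and 20.9, 31.6 and 4.53 CPM with LPS. E14.5 culture 1 stood far above the rest, and the lowest E14.5 library still lay above the highest adult one. The fitted difference was a log2 fold change of 3.69 with PBS (SE 1.33, edgeR adjusted p = 0.151) and 3.70 with LPS (SE 1.33, adjusted p = 0.135), neither of which passed the threshold. Without the E14.5 PBS library of culture 1 the PBS value was 1.94 (edgeR adjusted p = 0.484), and without its LPS library the LPS value was 1.69 (adjusted p = 0.453). DESeq2 called Igf2 in both comparisons, with adjusted p = 0.0255 and 0.0231.

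H19, the noncoding partner of Igf2, lies at chr7:142575530-142578146. It measured 176, 19.9 and 62.7 CPM in E14.5 cultures 1, 2 and 3 with PBS and 159, 12.01 and 55.5 CPM with LPS. The adult values were 25.4, 17.4 and 12.5 CPM with PBS and 30.0, 16.6 and 11.2 CPM with LPS. E14.5 culture 1 was again the highest, but E14.5 culture 2 sat inside the adult range, so the stages overlapped. H19 had a log2 fold change of 2.23 with PBS (SE 0.92, edgeR adjusted p = 0.211) and 1.97 with LPS (SE 0.91, adjusted p = 0.241). With both libraries of E14.5 culture 2 left out, H19 was called (log2 fold change 2.69 and 2.47, edgeR adjusted p = 0.0329 and 0.0414). With both libraries of E14.5 culture 1 left out, the H19 value fell to 1.16 with PBS and 0.81 with LPS (edgeR adjusted p = 0.501 and 0.597). Culture 2 was the E14.5 culture with the highest mesothelial sum, at 484 CPM with PBS against 119 and 116 CPM in cultures 1 and 3. It also had the lowest sum of the 6 smooth muscle markers, at 6719 CPM with PBS against 14276 and 10124 CPM, and of the 8 enteric neural and glial markers, at 13.9 CPM against 56.6 and 47.4 CPM. Of the 6 smooth muscle markers only Des went the other way, at 2577 CPM in culture 2 against 2077 and 1665 CPM. Tubb3 made up most of the neural and glial sums, at 12.4 CPM in culture 2 against 43.3 and 38.4 CPM. The part of these cells was not tested.

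The balance of Igf2 to H19 also differed between cultures. Counts of Igf2 over counts of H19 were 3.36, 4.17 and 1.02 in E14.5 cultures 1, 2 and 3 with PBS and 3.92, 3.91 and 1.37 with LPS. In adult cultures the ratio was 0.773, 1.93 and 0.330 with PBS and 0.697, 1.91 and 0.405 with LPS. Adult culture 2 thus had a higher ratio than E14.5 culture 3, and culture 3 had the lowest ratio of its stage with both treatments. Gene lengths cancel in a comparison of this ratio between libraries, but not in its absolute value.

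**Figure D2:**
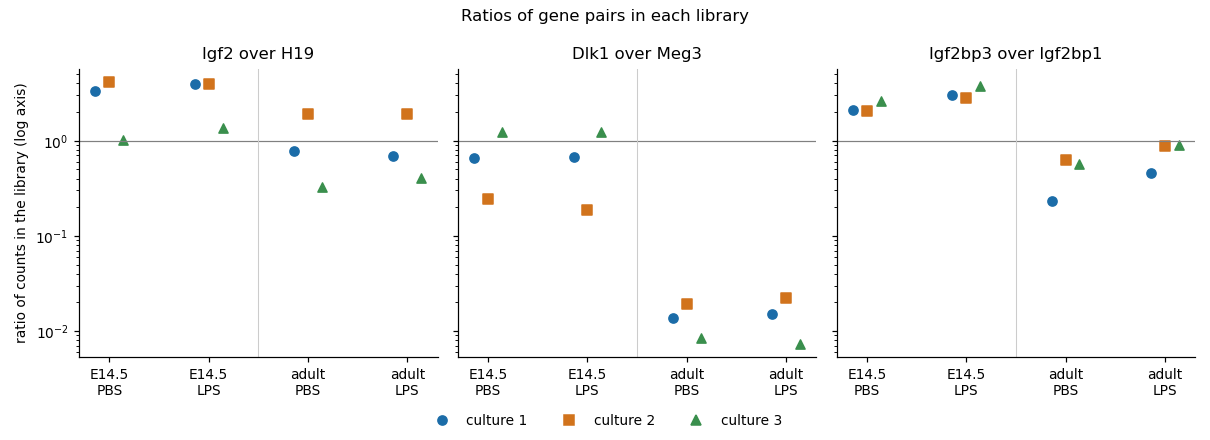
Ratio of the counts of 2 genes in each library (log axis) for Igf2 over H19, Dlk1 over Meg3 and Igf2bp3 over Igf2bp1, with a colour and symbol for each culture and a grey line at 1. Igf2 over H19 overlapped between the stages, whereas Dlk1 over Meg3 was at least 0.185 in each E14.5 library and at most 0.0224 in each adult library.

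Dlk1 showed the largest stage difference of the 9 tested members. It lies at chr12:109452485-109463336 on the plus strand. Its levels in E14.5 cultures 1, 2 and 3 were 252, 55.7 and 339 CPM with PBS and 259, 35.3 and 370 CPM with LPS. In adult cultures it fell between 2.55 and 3.48 CPM with PBS and between 2.20 and 3.25 CPM with LPS, from 51 to 100 counts a library. The adult libraries were thus low but well above the floor, and close to each other. The log2 fold change was 6.22 with PBS (SE 0.93, edgeR adjusted p = 0.00717), a 74.7-fold difference, and 6.35 with LPS (SE 0.94, adjusted p = 0.00805). E14.5 culture 2 was the lowest embryonic culture for Dlk1, as it was for H19.

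Meg3, the noncoding partner of Dlk1, did not show this difference. It lies at chr12:109540996-109571729 on the plus strand. E14.5 cultures 1, 2 and 3 gave 384, 226 and 277 CPM with PBS and 382, 191 and 303 CPM with LPS. Adult cultures gave 256, 131 and 309 CPM with PBS and 214, 119 and 302 CPM with LPS. The stages overlapped, and adult culture 3 stood above E14.5 culture 2. The log2 fold change was 0.35 with PBS (SE 0.41, edgeR adjusted p = 0.718) and 0.46 with LPS (SE 0.41, adjusted p = 0.57), so a modest difference in either direction cannot be told from none. Dlk1 counts over Meg3 counts were 0.656, 0.246 and 1.22 in E14.5 cultures with PBS, against 0.0136, 0.0195 and 0.00839 in adult cultures with PBS. The E14.5 and adult ratios did not overlap.

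Peg3, a paternally expressed zinc-finger protein of growth and cell survival, lies at chr7:6703892-6730462 on the minus strand. With PBS it measured 171, 39.3 and 92.0 CPM in E14.5 cultures 1, 2 and 3, and 14.6, 23.7 and 14.4 CPM in adult cultures. With LPS it measured 99.6, 33.8 and 33.0 CPM in E14.5 and 10.7, 10.8 and 8.72 CPM in adult cultures. Every E14.5 library lay above every adult library of the same treatment. The log2 fold change was 2.52 with PBS (SE 0.57, edgeR adjusted p = 0.037) and 2.46 with LPS (SE 0.57, adjusted p = 0.0364). This was the least stable of the 5 calls: with PBS it was lost without E14.5 PBS library 1 or 3 (edgeR adjusted p = 0.0994 and 0.0667), without adult PBS library 1, 2 or 3 (0.113, 0.0806 and 0.153), and without adult LPS library 1, 2 or 3 (0.0569, 0.0529 and 0.0618). With LPS it was lost without E14.5 LPS library 1 (0.0799), adult PBS library 1 or 3 (0.0536 and 0.0587), or adult LPS library 1, 2 or 3 (0.101, 0.0984 and 0.149). The Peg3 counts on its own strand exceed those deposited without regard to strand (5694 against 4810 in E14.5 PBS culture 1).

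Plagl1, a zinc-finger regulator of imprinted growth genes, lies at chr10:13090832-13131694 on the plus strand. It was even between cultures, with 192, 191 and 126 CPM in E14.5 PBS and 201, 227 and 146 CPM in E14.5 LPS cultures 1, 2 and 3. Adult cultures gave 70.7, 41.5 and 46.5 CPM with PBS and 67.6, 34.5 and 46.6 CPM with LPS. The stages did not overlap, and E14.5 culture 2, which was low for H19, Dlk1 and Peg3, with PBS, was not low here. The log2 fold change was 1.68 with PBS (SE 0.30, edgeR adjusted p = 0.0166) and 1.95 with LPS (SE 0.30, adjusted p = 0.00941). The call was lost with PBS without E14.5 PBS library 1 or adult PBS library 2 or 3 (edgeR adjusted p = 0.0569, 0.0621 and 0.0817), and with LPS without adult LPS library 3 (0.0536).

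The oncofetal genes share a feature outside the expression data, which is why their sequences are shown here. All 4 carry in the 3′ UTR a match to the seed of the let-7 microRNAs followed by an A. Lin28b blocks this family. The match to the seed without the A was also found in Peg3. In the RefSeq table for GRCm38.p6, 11 mature mouse microRNAs share this seed, written in capitals (bases 2 to 8) in 3 of them.
let-7a-5p: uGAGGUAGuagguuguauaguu
let-7g-5p: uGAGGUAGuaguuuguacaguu
miR-98-5p: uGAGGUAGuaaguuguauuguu
The site is CTACCTCA, which is the match to the seed, CTACCTC, and a final A that lies outside the seed match. It was searched on the sense strand of the longest annotated 3′ UTR of each gene (GENCODE M21, GRCm38). The 6 sites of the members are given with the 22 bases before them and the site in capitals, 5′ to 3′ on the minus strand, on which all 4 genes lie.
Hmga2, chr10:120364224-120364253: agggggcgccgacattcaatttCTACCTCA
Lin28b, chr10:45381022-45381051: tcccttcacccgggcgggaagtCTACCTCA
Igf2bp3, chr6:49086787-49086816: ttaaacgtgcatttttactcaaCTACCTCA
Igf2bp1 site 1, chr11:95961778-95961807: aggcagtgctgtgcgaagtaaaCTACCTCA
Igf2bp1 site 2, chr11:95959357-95959386: tgggaaccagcagtgctattaaCTACCTCA
Igf2bp1 site 3, chr11:95958763-95958792: actacgagtataaatggatgaaCTACCTCA

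Such a site was present in 3.7% of the 11529 tested genes with an annotated 3′ UTR, and 5 of them (0.0434%) held 3 or more, Igf2bp1 being one. These shares take no account of length. Nor do they allow for the choice of members, as Hmga2 is a known let-7 target and Lin28b acts on let-7. The 3′ UTRs of Igf2bp1, Igf2bp3, Lin28b and Hmga2 had 6337, 2119, 4445 and 3014 bases, and 0.473, 0.472, 0.225 and 0.332 sites per kb. The match to the seed alone, CTACCTC, which includes the sites above, was more common and was present in 10.8% of those tested genes. It occurred 4 times in Hmga2, Lin28b and Igf2bp1 alike, once in Igf2bp3 and once in Peg3. No 8-letter match was found in the 3′ UTRs of Igf2, Dlk1, Peg3 and Plagl1. The tested genes with a site had a median log2 fold change between stages of 0.05 with PBS, against 0.02 over all genes with a 3′ UTR. The mature microRNAs are not captured by polyA libraries and were not measured.

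Igf2bp3, an mRNA-binding protein of embryonic tissue, had the larger fitted stage difference of the 2 Igf2-mRNA-binding proteins, a gap between them that was not itself tested. It lies at chr6:49085218-49215469 on the minus strand. E14.5 cultures 1, 2 and 3 gave 77.0, 48.6 and 64.6 CPM with PBS and 84.3, 49.7 and 71.0 CPM with LPS. Adult cultures gave 1.39, 5.68 and 4.60 CPM with PBS and 1.92, 7.34 and 5.40 CPM with LPS, from 38 to 239 counts. The stages were far apart, and adult culture 1 was the lowest of all. The log2 fold change was 4.03 with PBS (SE 0.58, edgeR adjusted p = 0.00589), a 16.4-fold difference, and 3.81 with LPS (SE 0.57, adjusted p = 0.00839). In adult libraries 2.48% to 30.9% of the counts over Igf2bp3 lay on the opposite strand, against 0.414% to 1.91% in E14.5 libraries. With strand ignored the PBS log2 fold change was 3.90 (edgeR adjusted p = 0.00347).

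Igf2bp1, its paralog, lies at chr11:95957163-96005944. With PBS it measured 36.5, 23.5 and 24.7 CPM in E14.5 cultures 1, 2 and 3, and 6.00, 9.15 and 8.11 CPM in adult cultures. With LPS it measured 28.2, 17.8 and 19.01 CPM in E14.5 and 4.20, 8.36 and 6.00 CPM in adult cultures. There was no overlap between the stages. For Igf2bp1 the log2 fold change was 1.87 with PBS (SE 0.30, edgeR adjusted p = 0.0111) and 1.81 with LPS (SE 0.30, adjusted p = 0.012), and it fell just short without adult PBS library 3 (PBS, 0.0501) and without adult LPS library 3 (LPS, 0.0657). Igf2bp3 counts exceeded Igf2bp1 counts by a factor of 2.07 to 3.74 in E14.5 libraries, whereas in adult libraries the ratio was 0.232 to 0.899. This ratio is not corrected for length, and Igf2bp1 has 8.378 kb of exon against 4.345 kb for Igf2bp3. Per kb the adult means of Igf2bp1 and Igf2bp3 were 0.925 and 0.895 CPM with PBS and 0.738 and 1.12 CPM with LPS.

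Hmga2 was not called between the stages. It lies at chr10:120361268-120476469 on the minus strand. It stood at 149, 359 and 75.6 CPM in E14.5 cultures 1, 2 and 3 with PBS and at 165, 272 and 76.0 CPM with LPS. Adult cultures gave 101, 112 and 112 CPM with PBS and 81.4, 114 and 87.7 CPM with LPS. The adult cultures were even, and they fell between E14.5 culture 3, the lowest, and culture 1. E14.5 culture 2, low for H19 and Dlk1, had the highest Hmga2. Hmga2 gave a log2 fold change of 0.84 with PBS (SE 0.53, edgeR adjusted p = 0.439) and 0.86 with LPS (SE 0.53, adjusted p = 0.397), and without the E14.5 PBS library of culture 2 the PBS value was 0.04. All adult libraries lay far above the floor.

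Lin28b, at chr10:45376617-45486314 on the minus strand, was at or below the floor throughout. It had 1, 2 and 0 counts in E14.5 PBS cultures 1, 2 and 3 and 3, 0 and 0 counts in E14.5 LPS cultures. In the adult libraries it had 0 counts in 5 of the 6 and 2 counts in LPS culture 2. A difference between stages was not detectable at this depth, and no fold is given. Its paralog Lin28a was also not tested, with mean levels of at most 0.0886 CPM in each group.

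**Figure D3:**
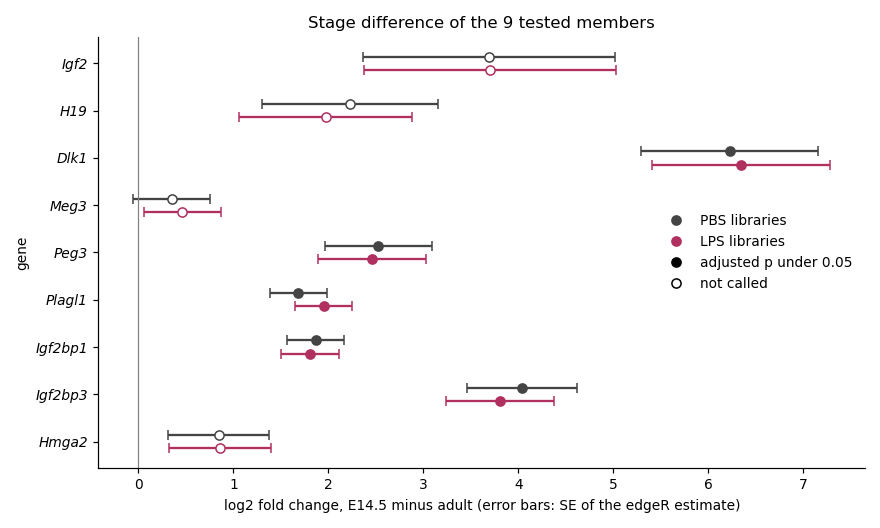
Log2 fold change between E14.5 and adult stroma for the 9 tested members, with PBS (grey) and LPS (red), bars giving the standard error of the edgeR estimate, filled points those with an adjusted p under 0.05. Dlk1 was highest at 6.22 and 6.35, Igf2 had a wide error and was not called, and Meg3 was nearest to 0 at 0.35 and 0.46.

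Levels of different genes can be compared only per length, here as mean CPM per kb of annotated exon. In E14.5 PBS cultures the order was Hmga2 at 51.0 ± 38.5 (SD, n = 3), Igf2 at 46.9 ± 57.1, Dlk1 at 45.0 ± 30.3, H19 at 37.7 ± 35.3 and Plagl1 at 31.5 ± 7.05 CPM per kb. These 5 neighbours did not differ beyond their spread. Below them came Meg3 at 18.9 ± 5.12, Igf2bp3 at 14.6 ± 3.28, Peg3 at 11.6 ± 7.65 and Igf2bp1 at 3.37 ± 0.857 CPM per kb. In adult PBS cultures Hmga2 was again first at 28.4 ± 1.70 CPM per kb (SD, n = 3), followed by Meg3 at 14.8 ± 5.81, Plagl1 at 9.83 ± 2.90 and H19 at 8.06 ± 2.84. Dlk1 was the last of the 9 there, at 0.600 ± 0.1095 CPM per kb. It was preceded by Igf2 at 3.64 ± 2.81, Peg3 at 2.02 ± 0.611, Igf2bp1 at 0.925 ± 0.191 and Igf2bp3 at 0.895 ± 0.513 CPM per kb.

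Several members varied widely between cultures of one stage. Across the E14.5 PBS cultures the highest value was 9.25 times the lowest for Igf2, 8.87 times for H19, 6.08 times for Dlk1, 4.74 times for Hmga2 and 4.36 times for Peg3. Over 12852 tested genes above the floor the median was 1.46 times, and between 2.58% and 8.96% of genes were as wide as these 5. Meg3, Plagl1, Igf2bp1 and Igf2bp3 spread by 1.53 to 1.70 times, a width that 36.1% to 45.2% of genes reached. In adult PBS cultures the widest were Igf2 at 8.16 times and Igf2bp3 at 4.08 times, against a median of 1.27 times. The narrowest was Hmga2, at 1.11 times, a width that 83% of genes reached, and the other 6 spread by 1.36 to 2.35 times. Most of these differences recurred in both libraries of a culture. The same culture was highest with PBS and with LPS for 8 of 9 members in E14.5 and 9 of 9 in adult stroma. The whole order was shared for 6 and 8 of them. Libraries were paired into cultures because they deviated together, so such recurrence is built into the pairing. Whether the members kept their order more often than other tested genes was not tested. E14.5 culture 1 was the highest with both treatments for Igf2, H19, Meg3, Peg3, Igf2bp1 and Igf2bp3, while culture 3 was highest for Dlk1 and culture 2 for Hmga2. Culture 3, with the highest macrophage sum, was the highest for no other member in E14.5.

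The second question was whether LPS changed these genes within 6 h. The treatment itself was visible, as all 5 markers of the LPS response were called higher in E14.5 and 3 of 5 in adult stroma. With the culture as a block, all 5 were called higher in adult stroma too. In the test over the 4 groups no member was called in E14.5 stroma, where 2.75% of all tested genes were, and none in adult stroma, where 0.606% were. The smallest unadjusted p of a member was 0.138 and 0.173 (edgeR), 0 members were under an unadjusted 0.05, and DESeq2 called 0 in either stage. The log2 fold changes with LPS ranged from -0.86 for Peg3 to 0.17 for Plagl1 in E14.5 and from -0.80 for Peg3 to 0.34 for Igf2bp3 in adult stroma.

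Comparing each LPS library with the PBS library of the same culture removed the wide spread between cultures. Peg3 was lower with LPS in all 6 cultures, by log2 differences of -0.78, -0.22 and -1.48 in E14.5 and -0.44, -1.13 and -0.72 in adult cultures 1, 2 and 3. Igf2bp1 was also lower in all 6, by -0.37, -0.40 and -0.38 in E14.5 and -0.51, -0.13 and -0.43 in adult cultures. Of all tested genes, 9.35% were lower in all 6. Igf2bp3 was higher with LPS in all 6 cultures, by 0.13, 0.03 and 0.14 in E14.5 and 0.45, 0.37 and 0.23 in adult cultures, where 13.0% of tested genes were higher in all 6.

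With the culture as a block in edgeR, 2 members were called lower with LPS in E14.5 stroma, where 12.5% of tested genes were called in either direction and 3.11% lower. Peg3 fell by 0.83 on the log2 scale (SE 0.22, edgeR adjusted p = 0.046) and Igf2bp1 fell by 0.38 (SE 0.10, adjusted p = 0.0415). In adult stroma no member was called with the block, where 6.20% of tested genes were, and Peg3, Igf2bp1 and Igf2bp3 had log2 fold changes of -0.77, -0.35 and 0.34 (edgeR adjusted p = 0.119, 0.124 and 0.0887). Both E14.5 calls were near the threshold. Peg3 was at adjusted p = 0.135, 0.0095 and 0.101 (edgeR) without E14.5 culture 1, 2 or 3, and Igf2bp1 at 0.123, 0.0837 and 0.0878. Leaving out adult cultures 1, 2 or 3, which share the estimate of the spread, gave 0.0731, 0.0502 and 0.0707 for Peg3 and 0.0589, 0.0446 and 0.0723 for Igf2bp1. Markers of dividing cells moved beside them: 4 of the 8 were called lower with LPS in E14.5 stroma with the block and 0 in adult stroma. Of the 12 macrophage markers, 3 were called higher (Ptprc, Adgre1 and Fcer1g, by 1.84, 1.08 and 1.07 on the log2 scale) and 1 lower (Cx3cr1, by -2.82) in E14.5 stroma with the block, and 0 in adult stroma. The part of these markers in the result was not tested. Zim1, the imprinted neighbour of Peg3, was called lower with LPS in both stages with the block (log2 fold change -0.73 and -1.19, edgeR adjusted p = 0.0119 and 0.00499). Without the block it was not called in either stage. Among the 9 tested neighbours of the imprinted members, Zim1 was the 1 called lower in each stage with the block. Another, Wars, was called higher in E14.5 stroma (log2 fold change 0.42, edgeR adjusted p = 0.0235).

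**Figure D4:**
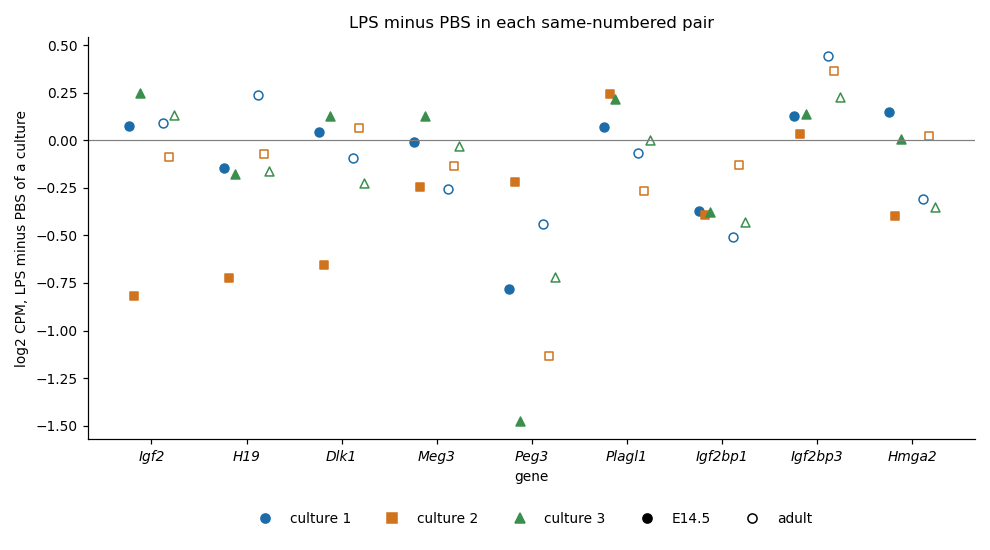
Difference in log2 CPM (prior count 2) between the LPS and PBS library of each culture for the 9 tested members, filled for E14.5 and open for adult cultures. Peg3 and Igf2bp1 lay below 0 and Igf2bp3 above 0 in all 6 cultures, and E14.5 culture 2 had the lowest value for Igf2, H19 and Dlk1.

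Whether LPS acted differently on these genes at the 2 stages was tested with the interaction. No member was called, and neither was any of the 13038 tested genes (0.00% by edgeR, with 2.25% at an unadjusted p under 0.05, and DESeq2 calling 0 members). With the culture block 0 members were called, where 0.844% of tested genes were. The smallest unadjusted p was that of Plagl1 with the block, 0.0279 (edgeR adjusted p = 0.473), with pair differences of 0.07, 0.25 and 0.22 in E14.5 and -0.07, -0.26 and 0.00 in adult cultures. The LPS effects on Peg3 differed between stages by -0.06 on the log2 scale with the block (SE 0.32), an error too wide to show that they were alike.

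Related genes showed whether the stage difference was shared by their families. Of 21 other paternally expressed imprinted genes, 15 were tested with PBS, none was called higher in E14.5, 1 was called lower and 14 were not called, with a median log2 fold change of 0.39. The gene called lower was Sgce, which encodes a sarcoglycan, at 56.0 ± 3.29 CPM (SD, n = 3) in E14.5 and 77.1 ± 5.31 CPM in adult cultures (log2 fold change -0.46, edgeR adjusted p = 0.0345). Slc38a4, an amino acid transporter gene named after its values were seen, had the largest difference of this list without being called. It stood at 423, 44.1 and 169 CPM in E14.5 PBS and at 0.293, 8.09 and 4.29 CPM in adult PBS cultures, with no overlap. Its log2 fold change was 5.66 with PBS (SE 1.47, edgeR adjusted p = 0.0609) and 5.74 with LPS (adjusted p = 0.0518). With strand ignored, 1 gene of the list was called higher in E14.5 with LPS. Of 16 other maternally expressed genes, 11 were tested, 2 were called higher, none lower and 9 not, with a median of 0.58. Cdkn1c, an inhibitor of cyclin-dependent kinases and a brake on fetal growth, stood at 540, 189 and 148 CPM in E14.5 PBS and at 3.70, 3.27 and 3.75 CPM in adult PBS cultures. Its log2 fold change of 6.35 (SE 0.74, edgeR adjusted p = 0.0022) was close to that of Dlk1. Grb10, an adaptor that dampens insulin and IGF receptor signalling, was at 823 ± 172 CPM in E14.5 and 411 ± 26.5 CPM in adult cultures (log2 fold change 1.00, edgeR adjusted p = 0.0362). With LPS the counts were 0 of 15 and 2 of 11. Beside these counts, 4.08% of all tested genes were called in either direction with PBS and 5.31% with LPS. The PBS calls of Sgce and Grb10 were each lost in 14 of 27 alternatives.

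Of 12 genes of the LIN28 and let-7 axis, 10 were tested and 1 was called higher with PBS, none lower and 9 not, with a median of 0.40. It was Cdk6, a cyclin-dependent kinase known as a let-7 target, at 39.6 ± 6.61 CPM in E14.5 and 22.1 ± 4.33 CPM in adult cultures (log2 fold change 0.84, edgeR adjusted p = 0.0245). With LPS 2 of the 10 were called higher, Cdk6 and the zinc-finger gene Plagl2, the latter named after its values were seen. The stage call of Cdk6 was lost in 8 of 27 alternatives with PBS and in 17 of 27 with LPS, and without a filter on low counts 0 of the list were called with LPS. Of 8 other oncofetal genes, 6 were tested, none was called with PBS and 1 was called higher with LPS, with a median of 0.53 with PBS. That gene, also named after its values were seen, was Gpc3, a cell-surface glypican, at a log2 fold change of 3.49 (edgeR adjusted p = 0.0449). The remaining list held the neighbours of the imprinted members. Of 16 such genes 15 were listed and 9 were tested, none was called with PBS and 1, Wars, a tRNA synthetase gene, was called higher with LPS (log2 fold change 0.89, edgeR adjusted p = 0.0166).

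The neighbours allow a look along each domain. Beside Dlk1 and Meg3, the noncoding RNAs Rian and Mirg, which like Meg3 are read from the maternal copy, had log2 fold changes with PBS of 0.58 and 0.30 (edgeR adjusted p = 0.456 and 0.789), near the 0.35 of Meg3. Rtl1 and Dio3, which like Dlk1 are read from the paternal copy, were below the filter in every group. On the far side of Dlk1, Begain, Wdr25 and Wars had values of 0.55, -0.11 and 0.62 (edgeR adjusted p = 0.51, 0.912 and 0.0566). Beside Igf2 and H19, only the mitochondrial ribosomal gene Mrpl23 was tested, at 0.29 (adjusted p = 0.571). Zim1 beside Peg3 was at 2.10 (SE 0.78, edgeR adjusted p = 0.163), and Ltv1 and Phactr2 beside Plagl1 were at 0.20 and -0.10 (adjusted p = 0.57 and 0.932). No neighbour passed the threshold with PBS. Of the 6 imprinted members, Igf2, H19 and Meg3 did not pass it either, and members and neighbours were not tested against each other.

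**Figure D5:**
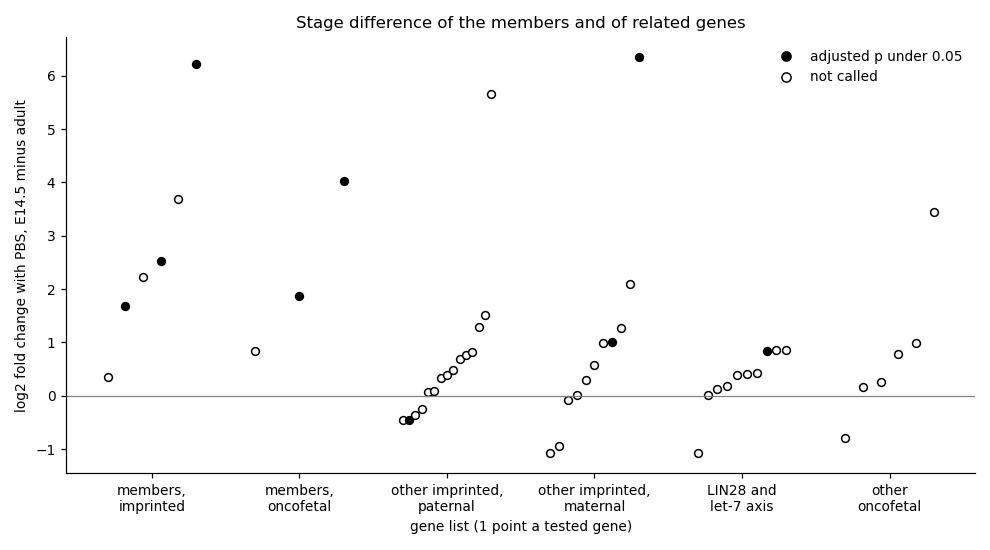
Log2 fold change between E14.5 and adult stroma with PBS for each tested gene of 6 lists, sorted within a list, filled where the adjusted p was under 0.05. The members reach 6.22 (Dlk1), the other maternally expressed genes 6.35 (Cdkn1c), and of the other paternally expressed genes the 1 filled point, Sgce, lies below 0.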

How the data were processed

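Stage, treatment and replicate were taken from the sample labels. The authors trimmed the reads, mapped them with STAR to mm10 (GRCm38.p6), kept unique alignments and deposited raw counts per gene, 1 table a library, without normalization. The sense-strand counts were used, since the opposite strand held 1.14% to 1.98%. In R 4.3.3, genes with CPM over 0.5 in all libraries of at least 1 group were kept, normalized by TMM and tested with edgeR 4.0.16 (quasi-likelihood) over all 12 libraries. The SE is the absolute log2 fold change over the square root of F, and pair differences use a prior count of 2. DESeq2 1.42.0, limma 3.58.1, other filters, strand-blind counts, blocks, stages alone, summed cultures and left-out libraries were alternatives. Leaving out whole cultures was added after the data were seen. Same-numbered LPS and PBS libraries deviated together within a stage (correlations 0.610 to 0.850), so the numbers pair them there, but not across stages (-0.306 to -0.00220). The scripts were tested on simulated data. All members are named. Of each related list up to 4 called genes are named (the 2 largest each way), and all tested neighbours. Members and lists were chosen with earlier results of these data known, and are no independent support for the stage difference. Exon lengths and UTRs came from GENCODE M21, and positions and microRNAs from RefSeq.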

Additional observations from a re-analysis of the deposited data

How the results depend on the processing

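No stage difference of the 9 tested members changed direction under the 27 alternatives. The count of members called higher in E14.5, 5 with PBS and 5 with LPS, fell to 2 and 3 at an adjusted p under 0.01 and to 3 and 3 with an added absolute log2 fold change of at least 2. With the PBS and LPS counts of a culture summed it was 2 (Dlk1 and Igf2bp3, by edgeR). With the 6 LPS libraries fitted alone, where fewer samples set the spread, it was 0 with LPS (adjusted p from 0.0507 to 0.0781 for the 5 genes, with 17 and 53 genes called higher and lower in all). With both libraries of adult culture 3 left out it was 0 and 0, when 13 and 5 of 13093 genes were called higher in E14.5. Leaving out 1 library gave 2 to 5 members with PBS (2 without adult PBS library 3, 3 without E14.5 PBS library 1 or adult PBS library 2) and 2 to 5 with LPS (2 without adult LPS library 3). The replicate block across stages left 5 and 5, but it joins same-numbered cultures of the 2 stages, which did not deviate together. For all genes, 197 and 396 were called higher in E14.5 by edgeR, and 760 and 994 by DESeq2. The replicate block within each stage raised the members lowered by LPS in E14.5 stroma from 0 to 2, and in the whole table the calls from 358 to 1635 in E14.5 and from 79 to 808 in adult stroma. With that block and a whole culture left out, 1 member was called in E14.5 stroma without E14.5 culture 2 or without adult culture 2, and 1 (Peg3) in adult stroma without E14.5 culture 2 or 3. The LPS effect of Igf2bp3, in log2, changed sign when libraries were left out without the block, with ranges of -0.072 to 0.29 in E14.5 and -0.096 to 0.72 in adult stroma. The other alternatives left these counts within 1.5 times. Where a cause is not given, it was not tested. Precision was limited by the spread between 3 cultures a stage, with an SE of 1.33 for Igf2 and 0.92 for H19 against 0.30 for Plagl1 (PBS, log2 scale).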
